A study of Bos taurus with 45 samples.

Results

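Heat shock proteins and their J-domain partners were followed in bovine endometrium and conceptus tissue that had been cultured alone or together. The members were every row of the count tables whose symbol starts with HSP followed by a letter from A to H or a digit, or with DNAJA, DNAJB or DNAJC followed by a number. This gave 75 of 27270 rows in the endometrial table and 67 of 16149 rows in the conceptus table, of which 67 and 66 had enough reads to be tested. In endometrium, DNAJC5B and HSPB9 had no read and DNAJB3, DNAJB7, DNAJB8, DNAJC22, DNAJC5G and HSPB3 reached at most 0.336 CPM (counts scaled to the total of the library). In conceptus tissue HSPB7 reached at most 0.561 CPM. The symbol rule also takes in HSPG2, which is perlecan, a proteoglycan of the basement membrane, and HSPB11, a protein of intraflagellar transport. Neither is a chaperone, and both were kept because the rule names them.

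Tissue came from estrus-synchronized Angus-Holstein heifers on Day 16. Heifers left unbred gave explants of intercaruncular endometrium, and heifers bred by artificial insemination gave in vivo derived (IVD) conceptuses, which were cut into sections. Explants and sections were cultured for 12 h in RPMI medium. The mono-cultures were Endo (n = 13, from 13 uteri) and IVD Conc (n = 8, from 8 conceptuses). In the co-culture, Endo-IVD Conc, a section lay on an explant, and both tissues were sequenced: 15 endometrial libraries from 11 of the same uteri, and 9 conceptus libraries from 7 of the same conceptuses. Of these animals, 4 uteri and 2 conceptuses gave a pair of co-cultures, so that libraries within a group were not all from different animals. All groups shared the culture itself, and uncultured tissue was not analysed here.

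HSP70 proteins bind unfolded stretches of other proteins and release them in a cycle driven by ATP, and J-domain proteins bring the clients and start that cycle. HSP90 proteins act later, among other things on steroid receptors such as the progesterone receptor, and small heat shock proteins hold unfolded proteins in a soluble state. The cytosol, the endoplasmic reticulum (ER) and the mitochondrion each have their own set: HSPA5 (BiP) and HSP90B1 (GRP94) work in the ER, and HSPA9, HSPD1 (HSP60) and HSPE1 (HSP10) in the mitochondrion. Heat shock factors induce many of the cytosolic members, and the unfolded protein response induces the ER members.

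Libraries held 44206002 to 63970863 counted reads in endometrium and 58583647 to 104436922 in conceptus tissue. The members together took 2.43 to 10.0% of the counts of an Endo library (median 5.05%) and 2.54 to 8.58% of those of a co-cultured explant (median 3.52%). In conceptus tissue the share was 1.29 to 2.09% in IVD Conc (median 1.70%) and 1.504 to 3.99% in co-culture (median 2.05%). The ranges overlapped in both tissues. Values below are in CPM, and genes are not ranked by CPM because gene lengths were not used. Trophoblast markers were high in conceptus tissue, with 400.0 to 29052 CPM of TKDP1 in IVD Conc, while the endometrial libraries had at most 0.0787 CPM of TKDP1 and 0.0859 CPM of PAG2. The whole list of trophoblast markers summed to 81.4 to 283 CPM in Endo and 87.7 to 224 CPM in co-cultured endometrium, mostly from GATA2, a transcription factor at 75.1 to 266 CPM in Endo and 75.2 to 217 CPM in co-culture. None of the 3 markers tested there was called by edgeR, with or without the uterus as a block.

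The first comparison asked which members changed in endometrium when a conceptus section lay on it. Of the 67 members tested, 4 rose in co-culture and 0 fell (edgeR quasi-likelihood test, Benjamini-Hochberg adjusted p at most 0.05 over all 16443 genes tested). Of all genes tested, 4.98% rose and 2.15% fell. The median log2 fold change of the members was -0.07, beside -0.04 over all genes. Those that rose were the J-domain proteins DNAJC1, DNAJC13 and DNAJC7 and HSPBAP1, which binds the small heat shock protein HSPB1. Bulk RNA cannot tell fewer cells of a type from less RNA per cell. Endothelial markers were also lower in co-culture: 2 of 8 fell (PECAM1 and EMCN), 5 with the uterus as a block, and their median log2 fold change was -0.35. They summed to a median of 1817 CPM in Endo and 1575 CPM in co-culture. Of 7 leukocyte markers 0 were called by edgeR without and 1 lower with the block. The part of these cells in the member values was not tested.

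DNAJC1 encodes a J-domain protein of the ER membrane. It stood at 16.5 to 37.1 CPM in Endo (median 22.0) and at 24.3 to 83.2 CPM in co-culture (median 52.0). The groups overlapped, yet each of the 11 uteri had more in co-culture than alone. The log2 fold change was 1.10 (SE 0.16, edgeR adjusted p = 5.6e-06).

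DNAJC13 encodes an endosomal protein that brings HSC70 to membranes. It ranged from 46.1 to 68.4 CPM in Endo (median 55.98) and from 66.2 to 115.6 CPM in co-culture (median 95.8). Only the lowest co-cultured explants, those of uteri 56 and 45, lay within the Endo range, and all 11 uteri had more in co-culture. The log2 fold change was 0.75 (SE 0.09, edgeR adjusted p = 9.4e-08).

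DNAJC7 encodes a co-chaperone that binds both HSP70 and HSP90. Its level was 65.4 to 83.8 CPM in Endo (median 73.3) and 76.0 to 111.0 CPM in co-culture (median 88.1). All 11 uteri had more in co-culture, though uterus 69 barely so (83.8 CPM alone and 83.9 CPM in co-culture). The log2 fold change was 0.25 (SE 0.06, edgeR adjusted p = 0.0079), the smallest of the called members. HSPBAP1 stood at 4.15 ± 0.76 CPM (SD, n = 13) in Endo and 5.39 ± 0.70 CPM (SD, n = 15) in co-culture, with more in 10 of 11 uteri and a log2 fold change of 0.38 (SE 0.10, edgeR adjusted p = 0.018). Without uteri 14 and 39, which were cultured with sections of the same conceptuses, the adjusted p was 0.090 for DNAJC7 and 0.15 for HSPBAP1. HSPBAP1 also missed the threshold without uteri 19 and 54 (0.072) and without uteri 16 and 56 (0.081).

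**Figure D1:**
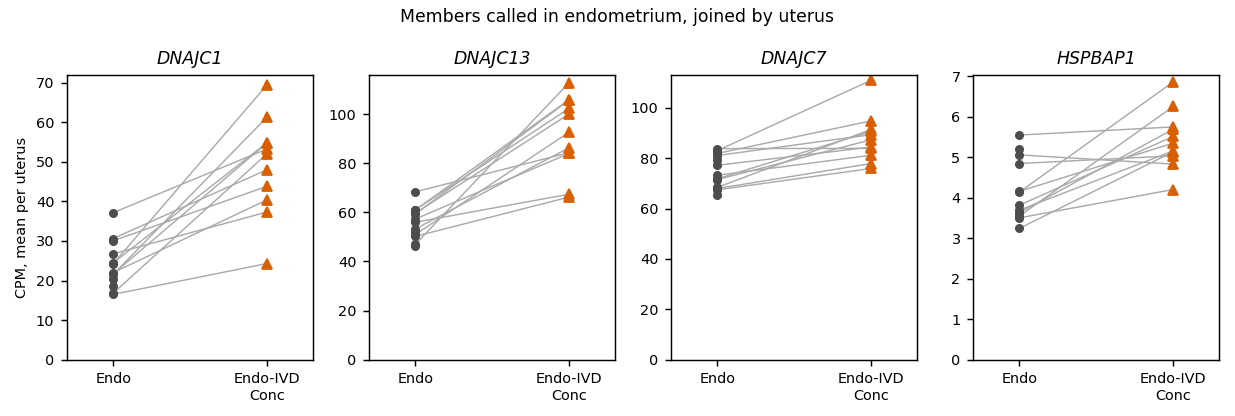
CPM (axis from 0) of the 4 members called in endometrium, 1 point for each uterus alone (Endo, 13 uteri) and in co-culture (Endo-IVD Conc, 11 uteri, means where a uterus gave 2 explants), with lines joining a uterus. For DNAJC1, DNAJC13 and DNAJC7 the line goes up for all 11 uteri, though for DNAJC7 it is nearly level in uterus 69. For HSPBAP1 it goes up for 10 of 11.

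Since mono- and co-cultures came from the same uteri, the comparison was also fitted with the uterus as a block. That fit called 7 members, 6 higher and 1 lower, while 6.69% of all genes were called higher and 3.85% lower. The added members were DNAJC6 (auxilin, which strips clathrin from vesicles; log2 fold change 0.58, edgeR adjusted p = 0.033), DNAJC8 (a J-domain protein that associates with the spliceosome; 0.19, adjusted p = 0.034) and DNAJC19 (a J-domain protein of the mitochondrial inner membrane; -0.35, adjusted p = 0.018). DNAJC19 was lower in co-culture in 10 of 11 uteri. With the 2 co-cultures of a uterus summed before the block fit, 6 members were called, among 5.8% of genes higher and 2.19% lower, and DNAJC8 was lost (adjusted p = 0.090). With the culture set as a block DNAJC6, DNAJC8 and DNAJC19 all missed the threshold (adjusted p = 0.35, 0.051 and 0.16). DESeq2, which called 5.48% of genes higher and 3.14% lower, called the 4 members that rose and 2 lower ones, DNAJC19 (-0.45, adjusted p = 0.039) and DNAJC24 (a J-domain protein of diphthamide synthesis; -0.35, adjusted p = 0.018).

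By edgeR no cytosolic HSP70, HSP90 or small heat shock protein was called in endometrium, with or without the block, and members not called without the block ranged in that fit from -0.98 (HSPA6) to 0.74 (DNAJC6) in log2 fold change. HSPA1A, the inducible HSP70, stood at 2413 to 31460 CPM in Endo (median 6280) and 2136 to 21990 CPM in co-culture (median 5187). The groups overlapped widely, and 5 uteri were higher in co-culture and 6 lower. The log2 fold change was -0.74 (SE 0.41, edgeR adjusted p = 0.32), and -0.03 (adjusted p = 0.95) with the uterus as a block. RefSeq (ARS-UCD2.0) lists HSPA1B as a synonym of HSPA1A, so reads of near-identical copies may be counted under this one symbol or lost.

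A further 7 cytosolic members are given here, and each apart from DNAJA1 had a log2 fold change nearer 0 with the block. HSPA8, the constitutive HSC70, had 1257 to 13744 CPM in Endo (median 3176) and 1186 to 9211 CPM in co-culture (median 1903), with log2 fold changes of -0.83 without (edgeR adjusted p = 0.24) and -0.22 with the block (adjusted p = 0.36). DNAJB1, the J-domain protein induced together with HSP70, gave -0.97 (adjusted p = 0.10) and -0.16 (adjusted p = 0.74), and HSPH1, the HSP110 exchange factor for HSP70, -0.80 (adjusted p = 0.28) and -0.21 (adjusted p = 0.63). For HSPA6, another inducible HSP70, the values were -0.98 and -0.16, for the small heat shock protein HSPB1 -0.72 and -0.13, and for HSP90AA1, the inducible HSP90, -0.53 and -0.12. DNAJA1, a J-domain partner of HSC70, went from -0.07 to 0.41 (adjusted p = 0.93 and 0.14). Every one of these missed the threshold in both fits.

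HSP90AB1, the constitutive HSP90, was more even. It had 2264 to 4564 CPM in Endo (2993 ± 663, SD, n = 13) and 2166 to 3212 CPM in co-culture (2524 ± 282, SD, n = 15). It was lower in co-culture in 10 of 11 uteri, by a log2 fold change of -0.25 that missed the threshold (edgeR adjusted p = 0.13, and 0.24 with the block). In uteri 38, 19 and 56 the log2 ratio was only -6.8e-04, -0.0037 and -0.012. A fit with 2 factors of unwanted variation estimated from the residuals called 19 members, 6 higher and 13 lower, among 8.25% of genes higher and 8.13% lower. Among the lower ones were HSPA1A (-0.59), HSPA8 (-0.68), HSP90AA1 (-0.48), HSP90AB1 (-0.24), DNAJB1 (-0.67), HSPD1 (-0.60) and HSPE1 (-0.37).

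**Figure D2:**
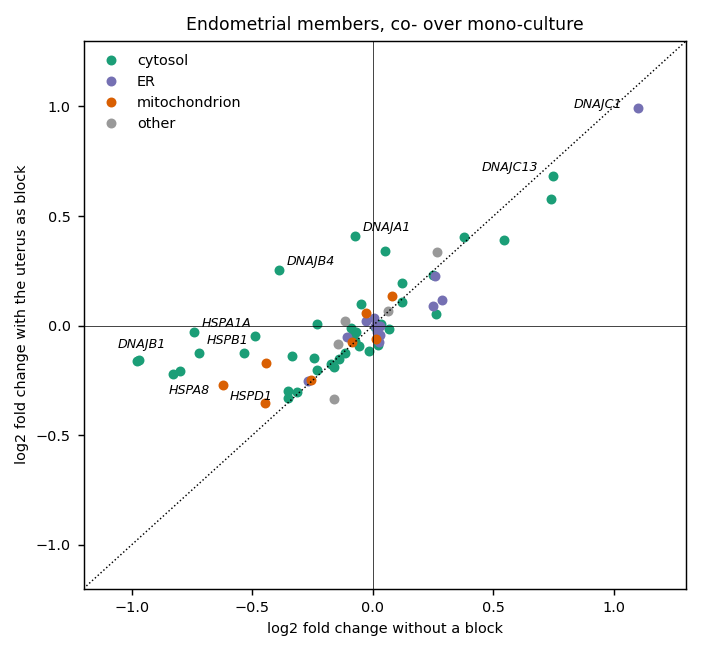
Log2 fold change, co- over mono-culture, of the 67 tested members in endometrium without a block (horizontal axis) and with the uterus as a block (vertical axis), colored by compartment, with the dotted line marking equal values. DNAJC1 and DNAJC13 lie near the line, while HSPA8, DNAJB1, HSPA1A and HSPB1 lie far left of 0 without the block (-0.97 to -0.72) and between -0.22 and -0.03 with it.

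In the ER class, DNAJC1 was the only 1 of 13 members called, and the median log2 fold change of the class was 0.02. HSPA5, the ER HSP70, had 4494 to 18313 CPM in Endo (median 8977) and 4419 to 15052 CPM in co-culture (median 8868). The groups overlapped over nearly their whole ranges, with a log2 fold change of 0.01 (SE 0.18, edgeR adjusted p = 0.99). HSP90B1, the ER HSP90, gave 0.00 (SE 0.17). The J-domain proteins that serve HSPA5 gave 0.25 (DNAJB9, adjusted p = 0.34), 0.02 (DNAJB11) and 0.03 (DNAJC3).

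In the mitochondrial class, 0 of 8 members were called by edgeR without a block, 1 with it (DNAJC19) and 1 by DESeq2 (DNAJC19), and the class median was -0.17. HSPD1, the mitochondrial chaperonin, had 294.0 to 2465 CPM in Endo (median 602) and 272 to 1327 CPM in co-culture (median 430.3). It was lower in 9 of 11 uteri, with a log2 fold change of -0.62 (SE 0.29, edgeR adjusted p = 0.23) that was -0.27 (adjusted p = 0.16) with the block. HSPE1, its lid protein and its neighbor in the genome, gave -0.44 (adjusted p = 0.18) and -0.17 (adjusted p = 0.32). HSPA9, the mitochondrial HSP70, gave 0.01, and DNAJA3, its J-domain partner, -0.09.

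Among the partners of these chaperones in endometrium, 2 of 24 tested partners of cytosolic HSP70 and HSP90 rose and 0 fell. They were BAG1, an exchange factor for HSP70 (0.65, edgeR adjusted p = 1.4e-06), and AHSA2, a relative of the HSP90 activator AHA1 (0.62, adjusted p = 9.2e-06). The median of this list was -0.13. With the uterus as a block 2 genes of the list were called higher and 2 lower. Of 14 chaperonin and prefoldin genes 1 fell (TCP1, a subunit of the cytosolic chaperonin, -0.33, adjusted p = 0.0081), and 1 of 11 mitochondrial partners fell (DNLZ, a helper of HSPA9, -0.48, adjusted p = 0.015). By edgeR 0 of 13 ER partners were called, with or without the block. Of 5 genes for heat shock factors and their binding proteins (HSF1, HSF2, HSF4, HSBP1 and HSF2BP), 0 were called in either fit. With the block 2 chaperonin and prefoldin genes and 1 mitochondrial partner were called lower.

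Levels of many cytosolic members and of HSPD1 differed widely between uteri. Over the 13 Endo libraries, the highest HSPA1A level was 13.0 times the lowest, HSPA6 24.0 times, HSPB8 31.6 times, HSPH1 22.5 times, DNAJB1 16.6 times and HSPD1 8.38 times. Of 49 members with a mean of at least 10 CPM, 14 (28.6%) had a ratio above 5, beside 1364 of 9193 genes (14.8%). By compartment these were 13 of 29 cytosolic members, 1 of 5 mitochondrial members and 0 of 13 ER members. The median ratio was 2.73 for the members and 2.43 for all genes.

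HSPA1A was at 31460 CPM in uterus 53, 26480 in uterus 15, 25832 in uterus 17, 19325 in uterus 16 and 18011 in uterus 45. The next was uterus 56, with 9490 CPM. The other 7 uteri lay between 2413 and 6280 CPM. Co-cultured explants of the same uteri followed a similar order, with 21990 CPM in uterus 16, 18245 CPM in uterus 53 and at most 9502 CPM in the explants of the other 9 uteri. Uteri 15 and 17 had no co-culture in these tables, and without them the log2 fold change of HSPA1A was -0.39 (edgeR adjusted p = 0.76), that of HSPA8 -0.55 and that of DNAJB1 -0.58. The same 4 members and DNAJC8 were called in that fit, among 4.79% of genes higher and 1.18% lower.

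**Figure D3:**
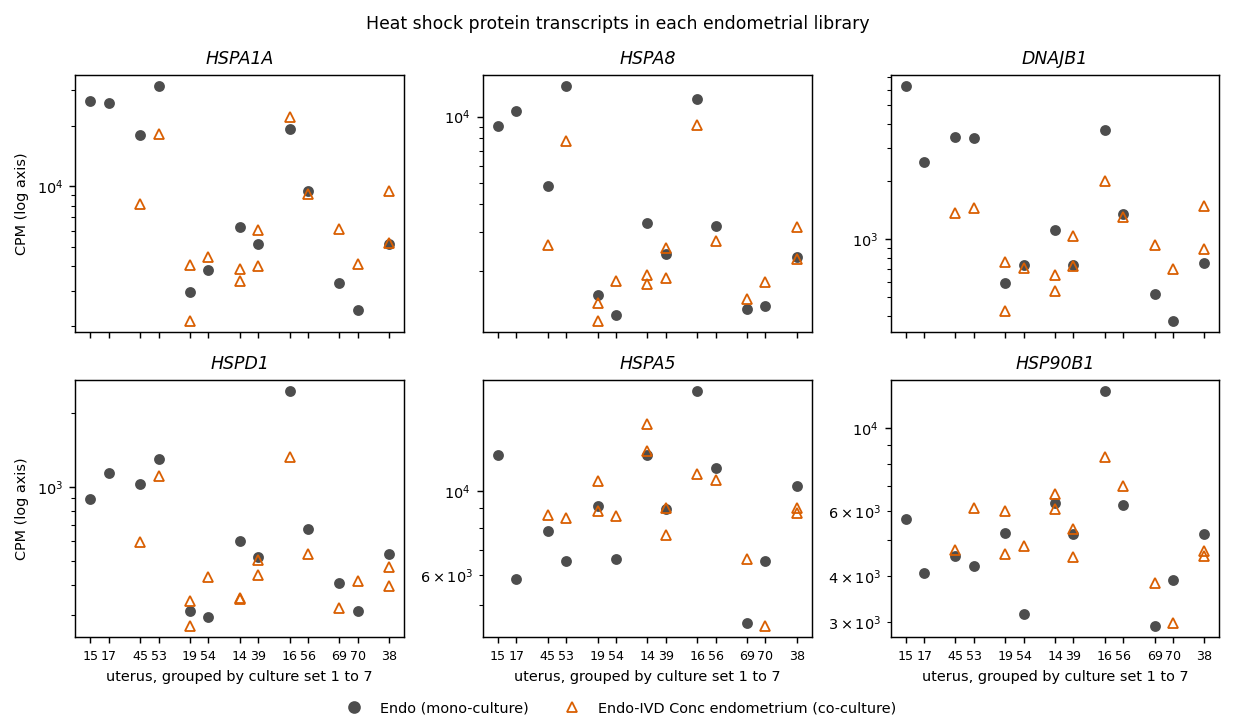
CPM (log axis) of 6 members in every endometrial library by uterus, uteri of 1 culture set standing together, with filled circles for Endo and open triangles for Endo-IVD Conc endometrium. HSPA1A, HSPA8, DNAJB1 and HSPD1 are high in uteri 15, 17, 45, 53 and 16 in mono-culture, and in co-culture uteri 16 and 53 are the highest for HSPA1A, HSPA8 and HSPD1.

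Uteri whose explants received sections of the same conceptuses were taken as 1 culture set, which gave 7 sets, 1 of them a single uterus, with uteri 15 and 17 joined through in vitro produced conceptuses in the study's supplementary list of cultures. The labels name no culture day. Whether the sets differed among Endo libraries was tested over all genes. This comparison was fixed after printed levels of members had been seen to differ between uteri, so it is no independent evidence. By edgeR 0 of 18399 genes and 0 of 68 members passed, with 1416 genes (7.7%) and 17 members at an unadjusted p under 0.05, and the smallest adjusted p was 0.24. HSPA1A had the fourth-smallest p of all genes (p = 5.3e-05, adjusted p = 0.24), with set means of 26156 CPM (uteri 15 and 17), 24735 CPM (45 and 53), 14407 CPM (16 and 56), 5729 CPM (14 and 39), 5147 CPM (38), 3398 CPM (19 and 54) and 2849 CPM (69 and 70). DESeq2 called 948 genes (5.16%), 15 of them members.

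The paired differences of HSPA1A ran both ways. The log2 ratio of co- to mono-culture was -1.15 in uterus 45, -0.80 in uterus 14 and -0.79 in uterus 53, but 0.90 in uterus 69, 0.77 in uterus 70 and 0.45 in uterus 38. The other 5 uteri lay between -0.07 and 0.21. Uterus 70 was the lowest of all in mono-culture and uterus 53 the highest.

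HSPB6 and HSPB7, small heat shock proteins of muscle, were highest in co-culture where smooth muscle transcript was highest. HSPB6 was at 217 CPM and HSPB7 at 20.3 CPM in the co-cultured explant with the most smooth muscle transcript, where 9 smooth muscle markers summed to 9937 CPM, against 311 to 1821 CPM in Endo. An Endo library, uterus 15, also had 218 CPM of HSPB6. The log2 fold changes were 0.05 for HSPB6 (edgeR adjusted p = 0.96) and 0.54 for HSPB7 (adjusted p = 0.46). Of the 9 markers 4 were higher in co-culture, and 0 of them with the uterus as a block. Without uteri 38 and 69 the count of members called was 4, as with all uteri, among 4.02% of genes higher and 1.17% lower. The part of muscle content in other members was not tested.

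The second comparison asked which members changed in conceptus tissue that lay on endometrium. Of 66 members tested, 6 rose and 1 fell (edgeR), beside 3.59% of all 14746 genes that rose and 3.65% that fell. They covered all 3 compartments: HSPH1, HSP90AB1 and HSPA8 in the cytosol, HSP90B1 in the ER, and HSPD1, HSPE1 and, lower, DNAJC30 in the mitochondrion. The median log2 fold change was 0.05 over members, 0.00 in the cytosol (40 tested), 0.21 in the ER (13) and 0.09 in the mitochondrion (8), with 0.01 over all genes. Members that were not called ranged from -0.88 (HSPA1L) to 2.61 (HSPA6).

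HSPD1 stood at 319 to 469 CPM in IVD Conc (median 390.4) and at 509 to 1232 CPM in co-culture (median 725.5). The groups did not overlap, and co-culture was higher in 7 of 7 conceptuses. Groups stood apart in this way, with co-culture higher, for 0.427% of genes. The log2 fold change was 1.00 (SE 0.17, edgeR adjusted p = 0.0084), and it was called with the conceptus as a block too (0.98, adjusted p = 0.026).

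HSPE1, which closes the HSPD1 chamber, had 206 ± 30.8 CPM (SD, n = 8) in IVD Conc and 344 ± 123 CPM (SD, n = 9) in co-culture. All 7 conceptuses were higher in co-culture, and the log2 fold change was 0.74 (SE 0.18, edgeR adjusted p = 0.025, with the block 0.055). HSPA9 and DNAJA3, the HSP70 pair of the same compartment, gave -0.13 (adjusted p = 0.82) and -0.18 (adjusted p = 0.46). DNAJC30, a J-domain protein of the inner membrane, had 15.2 ± 3.37 CPM (SD, n = 8) in IVD Conc and 9.65 ± 2.96 CPM (SD, n = 9) in co-culture and was lower in 7 of 7 conceptuses. Its log2 fold change was -0.65 (SE 0.19, edgeR adjusted p = 0.047, with the block 0.057).

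HSP90AB1 was the other member whose groups did not overlap, at 2281 to 3524 CPM in IVD Conc (median 2623) and 3625 to 6786 CPM in co-culture (median 4210). It rose by a log2 fold change of 0.79 (SE 0.15, edgeR adjusted p = 0.010, with the block 0.042), with all 7 conceptuses higher. HSP90AA1, its inducible relative, gave 0.35 (adjusted p = 0.39).

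HSPA8 had 2324 ± 479 CPM (SD, n = 8) in IVD Conc and 3724 ± 1028 CPM (SD, n = 9) in co-culture, higher in 7 of 7 conceptuses, with a log2 fold change of 0.68 (SE 0.19, edgeR adjusted p = 0.042, with the block 0.056). HSPH1 had 75.6 to 166 CPM in IVD Conc and 75.5 to 925 CPM in co-culture. Its log2 fold change of 1.45 was the largest among the called members (SE 0.41, edgeR adjusted p = 0.043, with the block 0.090), and 6 of 7 conceptuses were higher. Other cytosolic members were not called by edgeR. HSPA1A gave 1.03 (adjusted p = 0.19), HSPA6 2.61 (adjusted p = 0.062) and DNAJB1 1.35 (adjusted p = 0.057). Each was lower in co-culture in conceptuses 47 and 50, and higher in the other conceptuses with a pair. The log2 ratios in conceptuses 47 and 50 were -0.48 and -0.16 for HSPA1A, -0.46 and -1.32 for HSPA6, and -0.25 and -0.26 for DNAJB1. HSPB1 gave 0.80 (adjusted p = 0.16, higher in 7 of 7) and DNAJA1 0.66 (adjusted p = 0.10, higher in 7 of 7). DESeq2, which called 7.87% of genes higher and 6.79% lower, called HSPA6 (adjusted p = 0.0053) and DNAJB1 (adjusted p = 0.013).

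In the ER, HSP90B1 stood at 1949 ± 595 CPM (SD, n = 8) in IVD Conc and 3801 ± 1776 CPM (SD, n = 9) in co-culture. It was higher in 7 of 7 conceptuses, but nearly level in conceptus 50 (2420 and 2431 CPM). Its log2 fold change was 0.96 (SE 0.26, edgeR adjusted p = 0.037, with the block 0.077). HSPA5 had 360 to 2423 CPM in IVD Conc (median 684) and 327 to 12367 CPM in co-culture (median 2129). It was higher in 5 of 7 conceptuses and lower in conceptuses 50 and 71. The change of 1.77 on the log2 scale missed the threshold (SE 0.65, edgeR adjusted p = 0.099, DESeq2 0.025). Its J-domain partners gave 0.60 (DNAJB11, adjusted p = 0.15), 0.42 (DNAJC3, adjusted p = 0.27) and 0.36 (DNAJB9, adjusted p = 0.74).

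**Figure D4:**
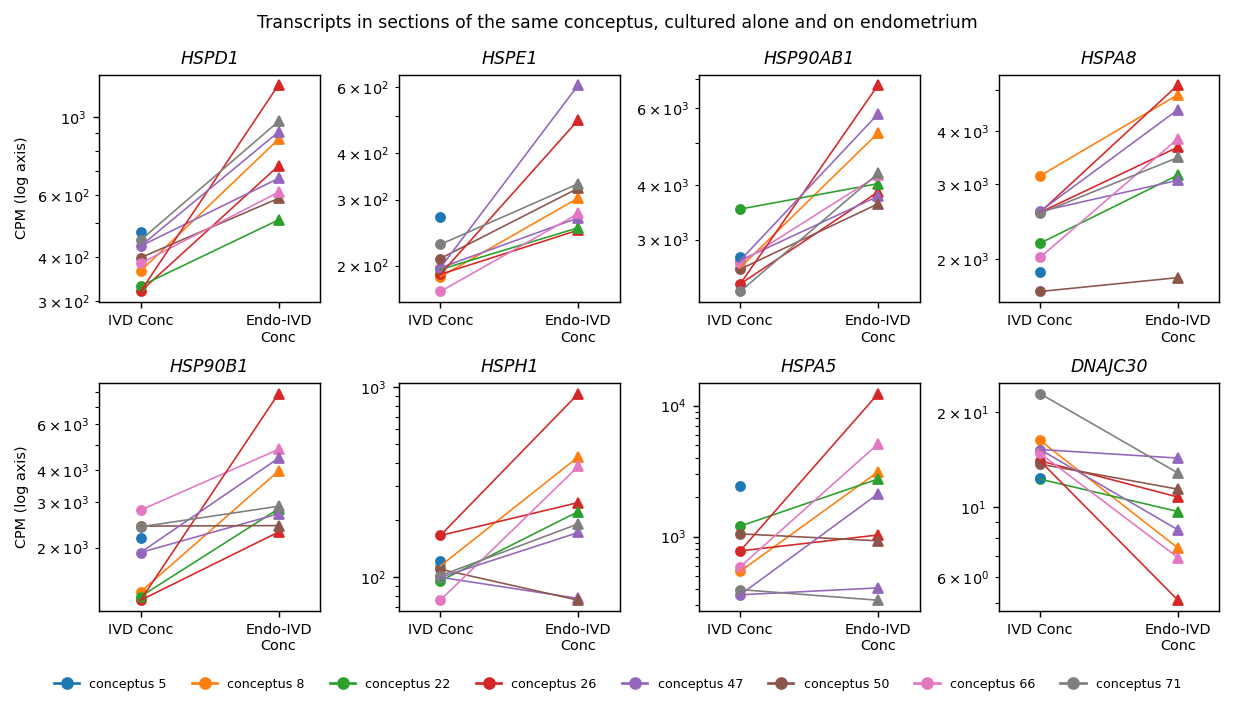
CPM (log axis) of 8 members in IVD Conc (circles, 8 conceptuses) and Endo-IVD Conc conceptus tissue (triangles, 9 libraries), with color and lines joining sections of 1 conceptus, so that conceptuses 26 and 47 have 2 lines. HSPD1, HSPE1, HSP90AB1 and HSPA8 rise along the lines, as does HSP90B1 apart from a nearly level line for conceptus 50. DNAJC30 falls, and HSPA5 spreads from 327 to 12367 CPM in co-culture.

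Sections of 1 conceptus laid on different uteri differed. For conceptus 26, HSPA5 was at 1031 CPM on uterus 14 and 12367 CPM on uterus 39, HSPH1 at 247 and 925 CPM, and HSP90B1 at 2295 and 7885 CPM. For conceptus 47, HSPA5 was at 406 CPM on uterus 19 and 2129 CPM on uterus 54. HSPD1 differed less, with 726 and 1232 CPM for conceptus 26 and 668 and 906 CPM for conceptus 47. The section of conceptus 26 on uterus 39 was the highest library in its group for HSPD1, HSP90AB1, HSP90B1, HSPA5, HSPA6, HSPA8 and HSPH1. Without it 3 members were called (HSPD1, HSP90AB1 and HSPE1, with adjusted p of 0.014, 0.018 and 0.046), among 1.73% of genes higher and 1.97% lower. Without the culture set of conceptuses 8 and 26, 0 of all genes tested (0%) were called by edgeR, and HSPD1 had an adjusted p of 0.19. HSPD1 and HSP90AB1 were the 2 members called without conceptuses 22 and 47 (0.231% of genes higher and 0.252% lower) and the 2 called without conceptus 71 (0.791% and 0.635%). Without conceptus 5, 3 members were called (1.75% and 1.73%). Without conceptuses 50 and 66 the count was 7, with 5 higher and 2 lower (2.9% and 3.38%). HSPE1, HSPH1 and DNAJC30 were lost (edgeR adjusted p = 0.062, 0.074 and 0.10). HSPA6 was gained as higher in co-culture (0.049), and DNAJB14 and DNAJC11 as lower (0.041 and 0.031).

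With the conceptus as a block, 4 members were called, all higher, among 2.27% of genes higher and 2.16% lower. They were HSPD1, HSP90AB1, DNAJC18 (a J-domain protein of the ER membrane, 0.73, edgeR adjusted p = 0.043) and HSPB2 (a small heat shock protein, 1.21, adjusted p = 0.041). Without the block DNAJC18 gave 0.63 (adjusted p = 0.10, higher in 7 of 7) and HSPB2 1.01 (adjusted p = 0.22). HSPB2 levels were low, at 0.262 to 2.92 CPM in IVD Conc and 0.875 to 7.18 CPM in co-culture. HSPB2 was lower in co-culture in conceptus 22 and higher in the other conceptuses with a pair. With the 2 sections of a conceptus summed first, the block fit called 17 members, among 7.59% of genes higher and 7.15% lower. The culture set as a block called 2 members, HSPD1 and HSP90AB1, among 0.787% and 0.895% of genes, and a fit with 2 factors of unwanted variation called 24, among 14.7% and 12.7%.

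Partners of the chaperones were read from the same fit. Of 24 partners of cytosolic HSP70 and HSP90, 4 rose: BAG3, an HSP70 exchange factor that works with small heat shock proteins (1.504), FKBP4, an immunophilin of steroid receptor complexes (1.02), AHSA1, the HSP90 activator (0.53), and SUGT1 (0.39). CHORDC1, an HSP90 co-chaperone, fell by 0.52, and the list median was 0.23. With the conceptus as a block 2 genes of the list were called higher and 0 lower. FKBP4 went from 216 to 367 CPM in IVD Conc to 405 to 968 CPM in co-culture with no overlap (edgeR adjusted p = 0.0096, with the block 0.029).

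Of 13 ER partners 3 rose: P4HB (0.89) and PDIA6 (0.80), both protein disulfide isomerases, and SEC63 (0.75), the J-domain protein of the translocon, with a list median of 0.68. With the conceptus as a block 0 of the 13 were called. Of 11 mitochondrial partners 2 rose, the protease subunit CLPX (0.52) and the mitochondrial HSP90 TRAP1 (0.49), with a list median of 0.34, and both were called with the block. By edgeR 0 of 14 chaperonin and prefoldin genes were called (median 0.27). Of the 5 genes for heat shock factors and their binding proteins, 0 were called (median 0.28).

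Hemoglobin transcript also differed. HBA had 0.417 to 2.02 CPM in IVD Conc and 1.16 to 69.3 CPM in co-culture (edgeR adjusted p = 0.0065), and 1 of 2 tested erythroid markers rose. The study treats HBA as a conceptus transcript and proposes that it may support the trophoblast. Its source was not tested here. The 6 endometrial stroma markers summed to 14.0 to 273 CPM in IVD Conc and 11.1 to 188 CPM in co-culture, and 0 of the 5 tested were called by edgeR. The 7 endometrial epithelium markers summed to 5791 to 21193 CPM in IVD Conc (median 10770) and 12660 to 31566 CPM in co-culture (median 19285), with a median log2 fold change of 0.41. By edgeR 0 of the 7 were called without the block and 1, KRT18, was called higher with it. KRT8 and KRT18, keratins that trophoblast also expresses, made up most of this sum. PAX8 in that list had a median of 1.99 CPM in IVD Conc and 2.46 CPM in co-culture. The part of cell carry-over in the chaperone values was not tested.

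The tissues were aligned with different programs and were not tested against each other, so their log2 fold changes are given only side by side. Of 64 members tested in both, 29 had the same sign and 0 were called in both. Neither count was made over all genes, so they are no result particular to the members. Few genes were called by edgeR in either tissue (4.98% higher and 2.15% lower in endometrium, 3.59% and 3.65% in conceptus tissue). DNAJC1 gave 1.10 in endometrium and 0.19 in conceptus tissue, DNAJC13 0.75 and -0.25, HSPD1 -0.62 and 1.00, HSP90AB1 -0.25 and 0.79, HSP90B1 0.00 and 0.96, and HSPA8 -0.83 and 0.68.

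**Figure D5:**
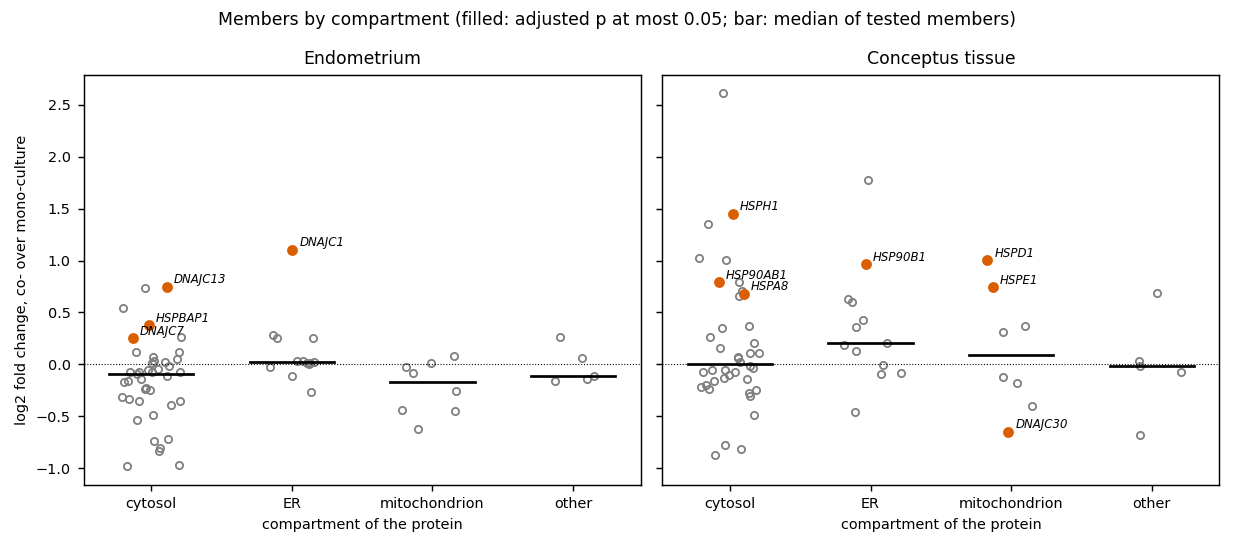
Log2 fold change, co- over mono-culture, of every tested member by compartment of its protein in endometrium (left, 67 members) and conceptus tissue (right, 66 members). Each circle is a member, filled where the adjusted p is at most 0.05, and bars mark class medians. The called members are 3 cytosolic and 1 ER in endometrium, and 3 cytosolic, 1 ER and 3 mitochondrial in conceptus tissue.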

How the data were processed

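RNA was poly(A)-enriched and sequenced with a stranded kit on a NovaSeq instrument. After trimming with Trimmomatic, the authors mapped endometrial reads with STAR and conceptus reads with HISAT2, both against ARS-UCD1.2, and deposited raw featureCounts counts per gene. Program versions and strandedness of counting were not given in the sources used here, so reads of overlapping antisense genes may be mixed. RNA integrity numbers were 5.2 to 9.3 for endometrium and 7.5 to 10 for conceptus tissue per the labels, without a value per library.

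Each tissue was fitted apart, over all genes, with edgeR 4.0.16 in R 4.3.3: TMM factors, filterByExpr (minimum count 10, total 15), robust quasi-likelihood fit and Benjamini-Hochberg adjustment, with a call at an adjusted p of at most 0.05. CPM use the TMM factors. Log2 ratios per animal used a pseudocount of 0.5 CPM. The script was tested on simulated data.

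Members and lists were chosen with earlier results of these data known, and the compartment of each member was assigned by hand. The named genes were 17 fixed members of the 3 compartments (HSPA1A to DNAJA3) and every member called in the main edgeR fit, without a block. Further members are named as examples, chosen after their values were seen: HSPA6, HSPB2, HSPB6, HSPB7, HSPB8, DNAJB14, DNAJC6, DNAJC8, DNAJC11, DNAJC18, DNAJC19 and DNAJC24. Genes of each partner list were named where called in the main edgeR fit, without a block.

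Same-animal pairs deviated together: all 15 endometrial pairs and all 9 conceptus pairs correlated above 0.1 (medians 0.35 and 0.50, beside -0.04 and -0.13 between other animals), so animals were used as blocks in the alternative fits. Further alternatives were summing the co-cultures of 1 animal, the culture set as a block, DESeq2 1.42.0, RLE size factors, no low-count filter, 2 RUVr factors and leaving out uteri or culture sets. A search of promoters for heat shock elements was not run. HSPA1A may share reads with near-identical copies.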

Additional observations from a re-analysis of the deposited data

Results flagged for a closer look

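Among 36 groups of 8 or 9 conceptus libraries looked at, 10 held a highest library far from the others by Dixon's ratio. About 1 in 20 independent groups would be singled out by chance, but these groups share libraries, so that rate is no measure for the count. Of the 10, 5 were the section of conceptus 26 on uterus 39, in Endo-IVD Conc conceptus tissue: HSPA5 at 12367 CPM (next 5110), HSP90B1 at 7885 CPM (next 4795), DNAJB11 at 472 CPM (next 257), HSPH1 at 925 CPM (next 430) and DNAJB1 at 627 CPM (next 315). Another 3 were conceptus 5 in IVD Conc, which had no co-culture in these tables: HSPA5 at 2423 CPM (next 1203), DNAJC3 at 238 CPM (next 149) and DNAJA3 at 112 CPM (next 79.2). The others in IVD Conc were HSP90AB1 in conceptus 22, at 3524 CPM (next 2737), and DNAJC30 in conceptus 71, at 22.8 CPM (next 16.2).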

How the results depend on the processing

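In endometrium 4 members were called, among 4.98% of all genes higher and 2.15% lower. The uterus as a replicate block gave 7 (6.69% and 3.85%) and 2 RUVr factors 19 (8.25% and 8.13%). The other alternatives gave 4 to 6 (3.4 to 5.8% and 1.09 to 3.14%). Leaving out each culture set gave 2 to 5 (3.61 to 5.28% and 0.629 to 2.31%). The share of all genes called moved between these fits too. In conceptus tissue 7 were called, among 3.59% of all genes higher and 3.65% lower. The conceptus as a replicate block gave 4 (2.27% and 2.16%). With the co-cultures of a conceptus summed the block gave 17 (7.59% and 7.15%). The culture set as a block gave 2 (0.787% and 0.895%), DESeq2 13 (7.87% and 6.79%) and 2 RUVr factors 24 (14.7% and 12.7%). RLE size factors gave 7 (3.64% and 3.68%) and no low-count filter 6 (2.92% and 3.05%). Leaving out each culture set, or the section of conceptus 26 on uterus 39 (chosen after seeing the data), gave 0 to 7 (0 to 2.9% and 0 to 3.38%). Between culture sets, where 0 members and 0 of all genes were called, DESeq2 gave 15 members (5.16% of genes). No low-count filter gave 1 member (2 of 22796 genes, 0.00877%). Among the named members no called value turned its sign. Values that were not called turned sign in 32 cases of 6 endometrial members, whose log2 fold changes were at most 0.07 in size as reported and up to 0.41 after turning (DNAJA1, with the uterus as a block). In conceptus tissue HSPA9 and DNAJB9 did so in 6 cases, DNAJB9 from 0.36 to -0.17 without conceptuses 22 and 47. The cause of these differences was not tested.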
